A study of Mus musculus with 12 samples.

Results

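The genes described here are 43 mouse genes of the interferon response and of MHC class I antigen presentation. They were taken by their symbols, not by a cut on measured values, from the 56748 genes of a deposited count table. The list was drawn up with earlier results of these data known. All 43 were found in the table, and 39 had enough counts to be tested. RNA was sequenced from 10T1/2 cells (C3H10T1/2, an established mouse line of mesenchymal progenitors) that spent 1 h in suspension and 18 h in culture with 0.5% serum. They grew on hydrogels of 12 kPa that carried type I collagen, applied at 0.05 mg/ml. The coating was collagen alone in col1, and collagen with 30 nM ACLP (aortic carboxypeptidase-like protein, a secreted matrix protein that binds collagen) in col1-ACLP (M-ACLP in the labels). The col1-ACLP+SB cells were on the same coating as col1-ACLP and also received 5 µM SB431542, an inhibitor of ALK5, the type I receptor kinase for TGFβ. Each group had 4 libraries, and none had SB431542 without ACLP, so a change with SB431542 that needs ACLP and one that does not cannot be told apart. All libraries come from 1 cell line, and p-values measure the spread between these libraries. Cells with less RNA of a gene and fewer cells that express it cannot be told apart in bulk RNA.

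Interferons are secreted proteins that bind receptors on the same and on neighbouring cells. Type I interferons act through the kinases Jak1 and Tyk2 on a complex that includes Stat2 and Irf9 and binds the interferon-stimulated response element (ISRE), and type II interferon acts on gamma-activated sites (GAS). The genes turned on in this way encode sensors of viral RNA, proteins that block viral entry or copying, large GTPases that attack microbes inside cells, and the machinery that cuts proteins into peptides and shows them on MHC class I at the cell surface. Fibroblasts express much of this set at a low level without infection.

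The libraries held between 29246154 and 52201922 counts, and 16465 of the 56748 genes passed the filter on low counts. Levels are CPM (counts scaled to a common library total, with TMM factors), and levels of different genes are compared only as FPKM, which divides CPM by the gene's length in kilobases. A gene rose or fell where the Benjamini-Hochberg adjusted p of edgeR's quasi-likelihood test was under 0.05, and passed the fold threshold where its log2 fold change was also beyond 0.58 in size. Of 10 mesenchymal markers 9 were at 1 CPM or more (Fap was at 0), with a summed level of 33975 to 35174 CPM on col1, 43858 to 52781 CPM on col1-ACLP and 40514 to 46062 CPM on col1-ACLP+SB. Of the 9 tested, 2 rose in col1-ACLP (the abundant Col1a1, log2 fold change 0.82, and Col1a2, 0.65) and 4 fell (Pdgfra, -0.76, Twist1, -0.43, Prrx1, -0.16, and Pdgfrb, -0.15). Of 9 macrophage and leukocyte markers 2 reached 1 CPM, the defining markers Adgre1 and Cd3e were at 0 in every library, and the summed level was 9.997 to 11.2 CPM on col1, 6.31 to 10.3 CPM on col1-ACLP and 7.81 to 12.8 CPM on col1-ACLP+SB. Cd68 held 9.47, 6.73 and 8.05 CPM of the mean sums, and it fell in col1-ACLP (log2 fold change -0.49, adjusted p = 0.0284); its part in the changes below was not tested. Endothelial markers summed to 5.06 to 8.301 CPM on col1, 7.52 to 9.85 CPM on col1-ACLP and 4.498 to 6.41 CPM on col1-ACLP+SB. Tek, the endothelial marker that was tested, was lower in every col1-ACLP+SB library than in every col1-ACLP library (log2 fold change -0.86, adjusted p = 0.0116), and its part in the results was not tested. Epithelial markers summed to 3.002 to 3.77, 2.72 to 4.84 and 2.34 to 4.03 CPM in the same order, and Epcam was at 0. Mitochondrial genes took 2.39% to 2.98% of counts on col1, 2.00% to 2.21% on col1-ACLP and 2.101% to 2.88% on col1-ACLP+SB, and the part of this difference in the results was not tested. The library col1 replicate 2 stood apart on the first principal component of all genes, at -86.7 against -11.1 to -8.97 for the other col1 libraries, and counts of calls are also given without it.

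Promoter sequence is shown for 6 of the 20 members with an ISRE core or GAS element, the letters through which interferon is known to act. They were chosen with their changes known: Ifit1, Ifit3, Bst2, Irgm1 and Irf1 fell in col1-ACLP, and Isg15 did not pass the test. Other members with like matches were not called lower, among them Ifih1, Eif2ak2 and Usp18 with 2 ISRE cores each, and Ifi35, Samhd1, Gbp7, Psmb8 and H2-D1 with a GAS element. The sequences shown are therefore no test of a link between a match and a fall. The windows were read from GRCm39 at the GENCODE canonical start of each gene, from 250 bases before it to 50 bases in, and searched for the ISRE core GAAANNGAA on both strands and the GAS element TTCNNNGAA, which reads the same on both strands. Neighbouring matches can share letters. An ISRE core was found in 15 of the 43 members (34.9%) against 1911 of 21757 promoters of protein-coding genes (8.78%), and a GAS element in 8 of the 43 (18.6%) against 1918 of 21757 (8.82%). The sequences are 5′ to 3′ on the gene's strand, with matches in capitals, and they are of the reference strain, not of the C3H strain the cells come from.
Isg15 (chr4:156285304-156285453, minus strand), the 150 bases before the start, with 3 ISRE cores that share letters: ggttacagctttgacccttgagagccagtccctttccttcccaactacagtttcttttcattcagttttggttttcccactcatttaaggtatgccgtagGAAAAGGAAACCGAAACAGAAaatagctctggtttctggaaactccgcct
Ifit3 (chr19:34560749-34560898, plus strand), the 150 bases before the start, with 3 ISRE cores: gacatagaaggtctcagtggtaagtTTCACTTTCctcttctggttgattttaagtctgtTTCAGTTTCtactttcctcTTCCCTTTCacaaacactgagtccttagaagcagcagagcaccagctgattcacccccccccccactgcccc
Bst2 (chr8:71990115-71990264, minus strand), the 150 bases before the start, with a GAS element that runs into 2 ISRE cores: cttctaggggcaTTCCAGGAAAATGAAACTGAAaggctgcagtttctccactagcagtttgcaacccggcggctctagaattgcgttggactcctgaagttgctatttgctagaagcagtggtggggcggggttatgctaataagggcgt
Ifit1 (chr19:34618172-34618201, plus strand), 30 bases with 2 of its 3 ISRE cores: ctgcaggcTTCAGTTTCACTTTCcagtctc
Irgm1 (chr11:48762256-48762285, minus strand), 30 bases with both of its ISRE cores: tgtttcaaGAAATAGAAACCGAAactgatt
Irf1 (chr11:53660743-53660772, plus strand), 30 bases with its GAS element: agcctgatTTCCCCGAAatgatgaggccga
In col1-ACLP, 5 of the 13 tested members with an ISRE core fell (38.5%), and 10 of the 26 without one did (38.5%), where 8.41% of all tested genes fell. A match is a description of the letters and not a measured binding site.

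**Figure D1:**
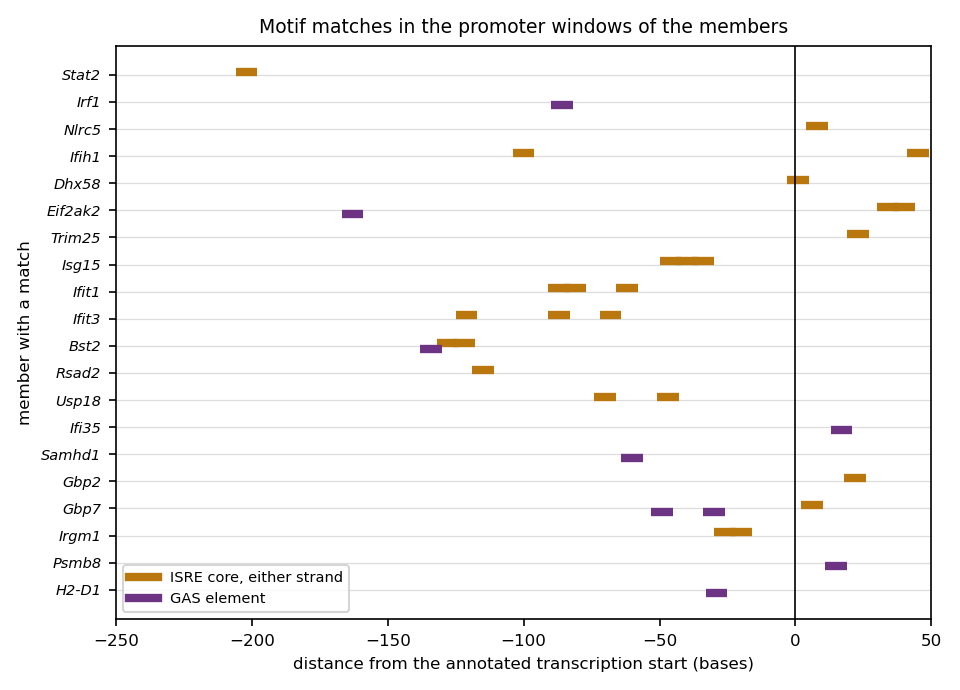
Positions of ISRE cores (orange, either strand) and GAS elements (purple) in the promoter windows of the 20 members that have a match, as distance in bases from the annotated start. Matches of Isg15, Ifit1, Ifit3, Bst2 and Irgm1 lie in groups before the start, while those of Nlrc5, Trim25 and Gbp2 lie after it.

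On collagen with ACLP, more members fell than rose against col1, most of them antiviral effectors and class I presentation genes. Of the 39 tested members, 15 fell (Irf1, Ifit1, Ifit3, Bst2, Parp14, Dtx3l, Herc6, Ifitm3, Gbp2, Irgm1, Psmb10, Tap2, Tapbp, B2m and H2-K1) and 2 rose (Isg20 and Samhd1), where 8.41% of all tested genes fell and 9.52% rose. The changes were small: 4 members were lower past the fold threshold (Gbp2, Ifit1, Tap2 and Bst2; 2.36% of all genes) and 1 was higher past it (Isg20; 2.61% of all genes). The median log2 fold change of the 39 members was -0.45 against -0.01 over all genes tested, and 35 of 39 estimates (89.7%) were below 0 against 51.5% of all genes. In 17 members every col1-ACLP library was below every col1 library (10.3% of all genes), and in 1, Isg20, every one was above (10.9% of all genes). Without col1 replicate 2, 14 members fell. Scaling by library size alone left 1 member higher and put 9 past the lower fold threshold.

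With SB431542 on the same coating, fewer members were lower against the same col1 libraries. In col1-ACLP+SB, 10 of 39 members fell against col1 (Irf1, Ifit3, Bst2, Dtx3l, Herc6, Ifitm3, Gbp2, Tap2, Tapbp and B2m; 4.54% of all genes fell) and 1 rose (Isg20; 4.6% of all genes rose). Past the fold threshold, 2 were lower (Gbp2 and Herc6; 1.01% of all genes) and 1 higher (Isg20; 1.27% of all genes). The median was -0.26 against 0.00459 over all genes, 12 members had every library below col1 (6.32% of all genes) and 1 had every library above (6.7% of all genes). Without col1 replicate 2, 8 members fell, and 6 fell when col1 replicate 4, col1-ACLP+SB replicate 1 or col1-ACLP+SB replicate 4 was left out. The comparison shares its col1 libraries with that of col1-ACLP, and whether a member changed less with SB431542 is given by the comparison of col1-ACLP+SB with col1-ACLP further on.

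**Figure D2:**
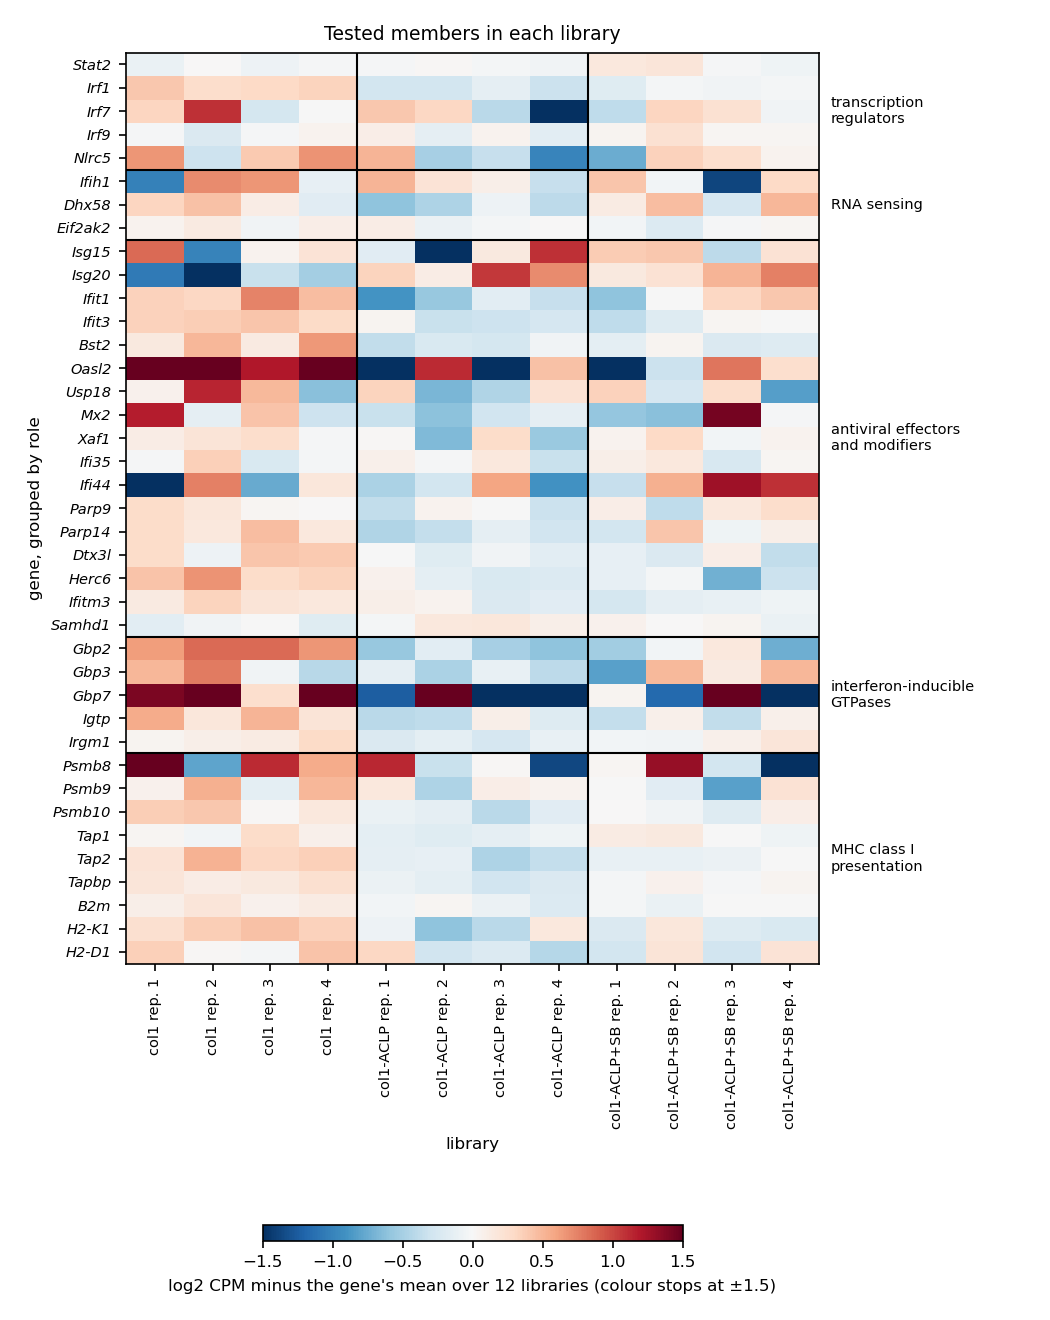
Each row is a tested member and each column a library; colour gives the log2 CPM of the gene in that library minus its mean over the 12 libraries, red above and blue below. The mean over the 39 members was 0.224 to 0.271 in the col1 libraries, -0.287 to -0.149 in the col1-ACLP libraries and -0.187 to 0.0535 in the col1-ACLP+SB libraries; rows of strong colour, such as Oasl2, Gbp7 and Psmb8, are genes of few counts.

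The level of a member set how well its change could be measured. B2m was the most abundant member at 584 FPKM over the 12 libraries, followed by Ifitm3 at 132, Tapbp at 43.4, Psmb10 at 14.3 and H2-D1 at 10.8 FPKM. The lowest tested member, Gbp7, was at 0.0715 FPKM. In col1-ACLP against col1, 15 of the 26 members at 1 FPKM or more passed the test and 2 of the 13 under 1 FPKM did (Isg20 and Herc6). The 95% interval of the log2 fold change reached a median of 0.239 to each side of the estimate in the first group and 1.14 in the second, so in most of the weakly expressed members a log2 change of 1 was not detectable at this depth. The 4 members that were not tested had almost no counts: Trim25 had 18 counts in 1 col1 library and 8 in 1 col1-ACLP+SB library, Rsad2 had 16, 2 and 8 counts in 3 libraries, Mx1 had 6 and 5 in 2 libraries, and Cmpk2 had 8 in 1 library, with 0 elsewhere. Exons of 28 members overlap those of another annotated gene. An antisense gene of unsettled type covers 31.4% of the exon bases of Irf1. Single antisense non-coding genes cover 31.1% of Isg15, 26.8% of H2-K1, 25.6% of Tapbp and 24.2% of H2-D1, and a same-strand one covers 12.2% of Herc6. Their counts may hold reads of these neighbours.

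Of the 5 transcription regulators, Irf1 was the member that passed the test, and it fell in both comparisons with col1. Of all tested genes, 8.41% fell and 9.52% rose in col1-ACLP, and 4.54% fell and 4.6% rose in col1-ACLP+SB. Irf1, a factor that interferon induces and that turns on class I genes (ENSMUSG00000018899, chr11:53660841-53669200), was 41.2, 37.4, 38.5 and 39.5 CPM in the 4 col1 libraries, 25.8, 25.9, 28.5 and 25.02 CPM in the 4 col1-ACLP libraries and 27.6, 30.5, 30.2 and 30.5 CPM in the 4 col1-ACLP+SB libraries. Every col1 library was above every library with ACLP, and Irf1 fell to 0.671-fold in col1-ACLP (log2 fold change -0.58, SE 0.07, adjusted p = 2.08e-06) and to 0.758-fold in col1-ACLP+SB (log2 fold change -0.40, SE 0.07, adjusted p = 0.000492). The other partners of the type I complex gave values close to col1. Stat2 was 45.5, 49.1, 46.5 and 48.3 CPM in the 4 col1 libraries, 48.4, 49.5, 48.1 and 47.3 CPM in the 4 col1-ACLP libraries and 54.6, 55.4, 48.4 and 46.9 CPM in the 4 col1-ACLP+SB libraries, with overlapping groups (log2 fold change 0.03, 95% interval -0.11 to 0.17, in col1-ACLP). Irf9, its DNA-binding partner, was 30.8, 26.7, 30.8 and 32.3 CPM in the 4 col1 libraries, 33.5, 28.4, 32.3 and 27.96 CPM in the 4 col1-ACLP libraries and 31.98, 36.4, 31.8 and 31.9 CPM in the 4 col1-ACLP+SB libraries, again with overlapping groups (0.02, -0.16 to 0.19); 4.86% of its exon bases lie in exons of Rnf31 on the same strand, and the sign of its estimate in col1-ACLP turned under 4 alternatives. Intervals this narrow leave out changes of 0.58 in either direction for both genes.

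Irf7 and Nlrc5 differed widely between replicates. Irf7, which amplifies type I interferon production, was 2.24, 3.89, 1.49 and 1.79 CPM in the 4 col1 libraries, 2.38, 2.24, 1.34 and 0.567 CPM in the 4 col1-ACLP libraries and 1.37, 2.25, 2.103 and 1.72 CPM in the 4 col1-ACLP+SB libraries. Its replicates ranged widely inside each group, and its log2 fold change in col1-ACLP of -0.52 (95% interval -1.31 to 0.27, adjusted p = 0.417) did not pass the test. Nlrc5, the transactivator of class I promoters, was 2.35, 1.17, 1.94 and 2.37 CPM in the 4 col1 libraries, 2.11, 1.02, 1.14 and 0.709 CPM in the 4 col1-ACLP libraries and 0.854, 1.88, 1.76 and 1.52 CPM in the 4 col1-ACLP+SB libraries. The groups overlapped, with a log2 fold change of -0.65 in col1-ACLP (95% interval -1.44 to 0.14, adjusted p = 0.284).

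None of the 3 tested members that sense viral RNA passed the test in any comparison. Of all tested genes, 8.41% fell and 9.52% rose in col1-ACLP, and 4.54% fell and 4.6% rose in col1-ACLP+SB. Between the groups with ACLP, 0.905% fell and 0.571% rose. With 3 genes, a count of 0 does not set these sensors apart from all genes. Eif2ak2, the kinase that stops translation when it meets double-stranded RNA, was at 51.7 ± 2.75 CPM (col1) and 49.5 ± 2.95 CPM (col1-ACLP) (SD, n = 4), with a log2 fold change of -0.06 (95% interval -0.21 to 0.08). Dhx58, which encodes LGP2, was at 3.698 ± 0.672 CPM on col1, 2.49 ± 0.415 CPM on col1-ACLP and 3.82 ± 0.886 CPM on col1-ACLP+SB (SD, n = 4), and its adjusted p was 0.0994 in col1-ACLP. Ifih1, which encodes the sensor MDA5, was at 0.232 to 1.17 CPM over the 12 libraries (log2 fold change -0.06, 95% interval -1.21 to 1.08).

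Of the 20 antiviral effectors and modifiers, 17 were tested, 7 fell and 2 rose in col1-ACLP, and 5 fell and 1 rose in col1-ACLP+SB against col1. Over all tested genes, 8.41% fell and 9.52% rose in the first comparison, and 4.54% fell and 4.6% rose in the second. Ifit1, which binds viral RNA at its 5′ end (ENSMUSG00000034459, chr19:34618271-34627409), was 4.05, 3.97, 5.37 and 4.42 CPM in the 4 col1 libraries, 1.68, 2.13, 2.84 and 2.48 CPM in the 4 col1-ACLP libraries and 2.08, 3.16, 3.95 and 4.23 CPM in the 4 col1-ACLP+SB libraries. It showed no overlap between col1 and col1-ACLP, with a fall to 0.512-fold (log2 fold change -0.96, SE 0.25, adjusted p = 0.00586), while the col1-ACLP+SB libraries spread over both ranges (-0.41, adjusted p = 0.38, against col1). Ifit3, its partner (ENSMUSG00000074896, chr19:34560931-34566131), was 16.8, 17.1, 17.7 and 16.2 CPM in the 4 col1 libraries, 13.6, 10.5, 10.6 and 11.1 CPM in the 4 col1-ACLP libraries and 10.1, 11.6, 13.5 and 13.2 CPM in the 4 col1-ACLP+SB libraries. Here both ACLP groups lay below col1 in every library (log2 fold change -0.57, SE 0.12, adjusted p = 0.000952, in col1-ACLP; log2 fold change -0.49, SE 0.12, adjusted p = 0.00712, in col1-ACLP+SB). Both genes carry 3 ISRE cores in their promoter windows, and reads of Ifit3 may be shared with its close copy Ifit3b.

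Bst2, or tetherin, which holds budding virus at the cell surface (ENSMUSG00000046718, chr8:71986899-71990100), was 8.196, 10.4, 8.104 and 11.6 CPM in the 4 col1 libraries, 5.68, 6.303, 6.11 and 7.09 CPM in the 4 col1-ACLP libraries and 6.66, 7.59, 6.35 and 6.45 CPM in the 4 col1-ACLP+SB libraries. Every library with ACLP was below every col1 library. It fell in col1-ACLP (log2 fold change -0.61, SE 0.15, adjusted p = 0.0047) and in col1-ACLP+SB (log2 fold change -0.51, SE 0.15, adjusted p = 0.0314). The latter call was lost without col1 replicate 2 or 4 or without col1-ACLP+SB replicate 1, 3 or 4 (adjusted p up to 0.15). Ifitm3, a membrane protein that blocks viral entry (ENSMUSG00000025492, chr7:140589499-140590683), was 97.8, 112, 101 and 98.98 CPM in the 4 col1 libraries, 94.5, 92.2, 76.5 and 79.3 CPM in the 4 col1-ACLP libraries and 74.4, 81.1, 82.5 and 85.4 CPM in the 4 col1-ACLP+SB libraries. No library with ACLP reached a col1 library, and the fall was small in col1-ACLP (log2 fold change -0.26, SE 0.07, adjusted p = 0.00796; adjusted p = 0.052 without col1-ACLP replicate 3) and in col1-ACLP+SB (log2 fold change -0.34, SE 0.07, adjusted p = 0.00111). Exons of an antisense non-coding gene cover 60.9% of the exon bases of Ifitm3, and whether the counts used strand is not given in the sources used here.

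Parp14, an enzyme that attaches single ADP-ribose units (ENSMUSG00000034422, chr16:35653244-35691914), was 14.1, 13.03, 15.995 and 12.97 CPM in the 4 col1 libraries, 8.49, 9.09, 10.6 and 9.496 CPM in the 4 col1-ACLP libraries and 9.63, 15.5, 11.2 and 12.3 CPM in the 4 col1-ACLP+SB libraries. All 4 col1-ACLP libraries were below col1 (log2 fold change -0.58, SE 0.14, adjusted p = 0.00338), while col1-ACLP+SB overlapped both other groups (-0.21, adjusted p = 0.442, against col1). Dtx3l, a ubiquitin ligase (ENSMUSG00000049502, chr16:35746881-35759521), was 23.9, 18.7, 26.4 and 25.8 CPM in the 4 col1 libraries, 19.7, 17.5, 19.04 and 17.7 CPM in the 4 col1-ACLP libraries and 18.1, 16.98, 21.2 and 15.2 CPM in the 4 col1-ACLP+SB libraries. Its col1 replicate 2 lay inside the range of the other groups. Dtx3l fell in col1-ACLP (log2 fold change -0.36, SE 0.11, adjusted p = 0.0282) and col1-ACLP+SB (log2 fold change -0.40, SE 0.11, adjusted p = 0.0231). Both calls were lost without col1 replicate 1, 3 or 4 and without 3 of the 4 treated libraries (replicates 2, 3 and 4 of col1-ACLP, replicates 1, 2 and 4 of col1-ACLP+SB), with adjusted p up to 0.107 and 0.0968. Its partner Parp9, whose start lies 681 bases away on the opposite strand and whose exons overlap it, had a log2 fold change of -0.27 in col1-ACLP (adjusted p = 0.175).

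Among the members that belong to the ISG15 system, the ligase fell, while the modifier and its protease did not pass. Genes of this system outside the members, among them Uba7 and Ube2l6, are not described here. Herc6, the ligase that attaches ISG15 to proteins in mice (ENSMUSG00000029798, chr6:57557985-57641617), was 6.81, 8.103, 6.13 and 6.39 CPM in the 4 col1 libraries, 5.32, 4.56, 4.31 and 4.39 CPM in the 4 col1-ACLP libraries and 4.64, 4.97, 3.05 and 4.04 CPM in the 4 col1-ACLP+SB libraries. Both ACLP groups were below col1 in every library. The fall in col1-ACLP (log2 fold change -0.56, SE 0.18, adjusted p = 0.0314) was lost without a filter on low counts and without col1 replicate 1 or 2 or col1-ACLP replicate 2, 3 or 4 (adjusted p up to 0.0961). That in col1-ACLP+SB (log2 fold change -0.72, SE 0.18, adjusted p = 0.00968) passed under all 20 alternatives. Isg15, the modifier itself (ENSMUSG00000035692, chr4:156283912-156285253), was 1.67, 0.424, 0.941 and 1.05 CPM in the 4 col1 libraries, 0.794, 0.221, 1.002 and 1.98 CPM in the 4 col1-ACLP libraries and 1.196, 1.21, 0.675 and 1.06 CPM in the 4 col1-ACLP+SB libraries. Its replicates differed more than its groups, and its interval in col1-ACLP ran from -1.14 to 1.06 on the log2 scale. Usp18, which removes ISG15, was at 0.773 ± 0.415 CPM with collagen alone against 0.535 ± 0.198 CPM in col1-ACLP (SD, n = 4; adjusted p = 0.619).

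The 2 members that rose are both enzymes that break down nucleic acids or their building blocks. Isg20, an exonuclease of RNA (ENSMUSG00000039236, chr7:78563172-78570144), was 0.731, 0.371, 1.24 and 1.09 CPM in the 4 col1 libraries, 2.02, 1.71, 3.37 and 2.62 CPM in the 4 col1-ACLP libraries and 1.77, 1.85, 2.28 and 2.71 CPM in the 4 col1-ACLP+SB libraries. All 8 libraries with ACLP were above all col1 libraries, by 2.82-fold in col1-ACLP (log2 fold change 1.496, SE 0.37, adjusted p = 0.00414) and 2.499-fold in col1-ACLP+SB (log2 fold change 1.32, SE 0.36, adjusted p = 0.0197; lost without col1 replicate 1 or col1-ACLP+SB replicate 4 and when only the 2 groups were fitted, adjusted p up to 0.0649). Its counts were few, from 14 to 118 per library. Samhd1, which degrades deoxynucleotides (ENSMUSG00000027639, chr2:156939453-156977185), was 57.7, 61.99, 64.3 and 56.97 CPM in the 4 col1 libraries, 63.3, 71.8, 72.7 and 68.4 CPM in the 4 col1-ACLP libraries and 67.4, 64.5, 66.4 and 60.3 CPM in the 4 col1-ACLP+SB libraries. The groups overlapped and the rise in col1-ACLP was slight (log2 fold change 0.20, SE 0.06, adjusted p = 0.0317). It was lost when scaled by library size alone and without col1 replicate 1 or 4 or col1-ACLP replicate 2, 3 or 4 (adjusted p up to 0.126).

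The remaining tested effectors did not pass. Oasl2, a relative of the OAS enzymes, had counts in all 4 col1 libraries (29 to 54 counts) and was at 0 counts in 2 col1-ACLP libraries and 1 col1-ACLP+SB library. Every library with ACLP was below col1, and the adjusted p was 0.194 in col1-ACLP. Xaf1, Ifi35 and Parp9 had estimates from -0.32 to -0.06 in col1-ACLP, and Mx2, Ifi44 and Usp18 had intervals over 2 log2 units wide.

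**Figure D3:**
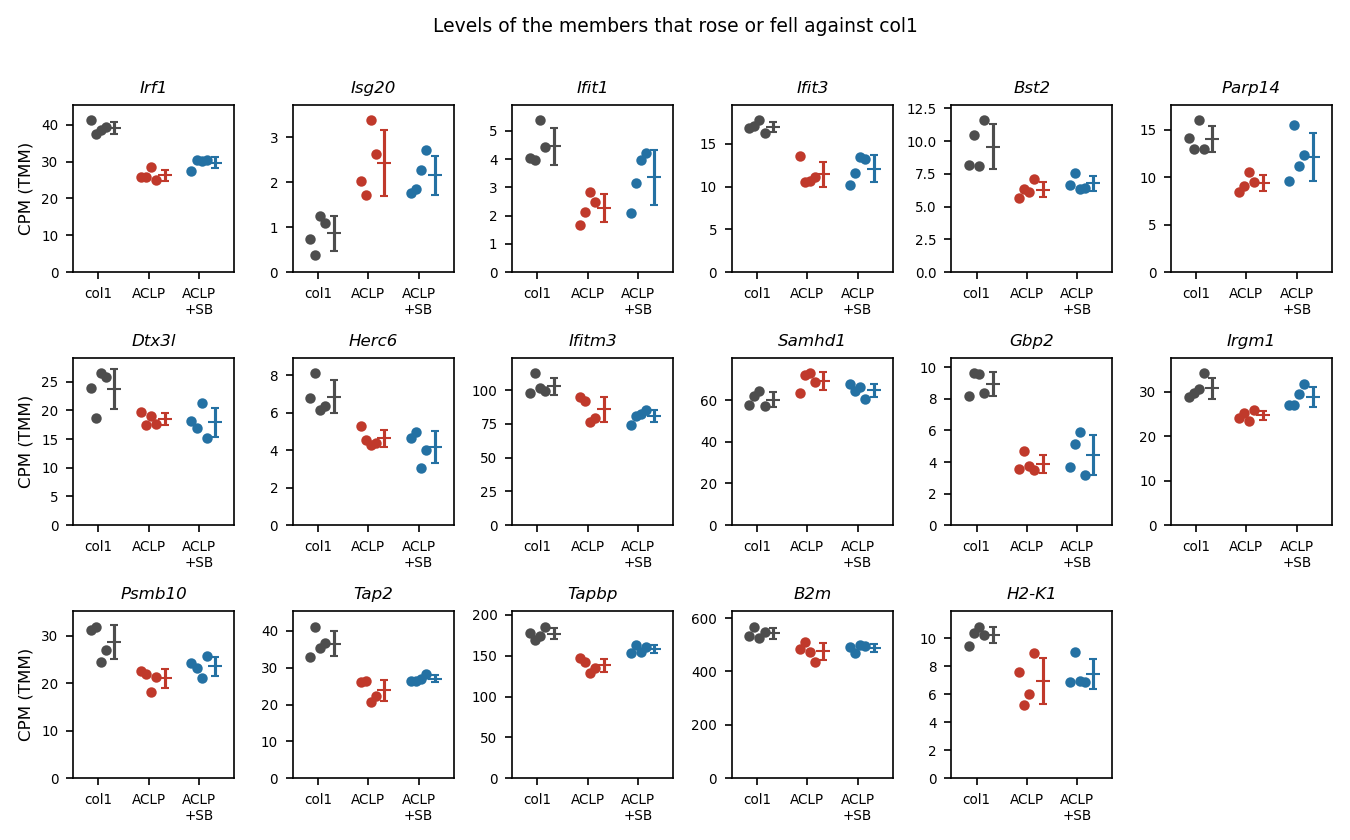
Points give the CPM of each library for the 17 members that rose or fell against col1, in col1 (grey), col1-ACLP (red) and col1-ACLP+SB (blue); the bars beside them are the mean and SD of 4 libraries, and each axis starts at 0. Only Isg20 and Samhd1 have their col1 mean below both other means, and in Ifit1 and Parp14 the blue points spread between the other groups.

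Among the interferon-inducible GTPases, 2 of 5 fell in col1-ACLP and 1 of 5 in col1-ACLP+SB, where 8.41% and 4.54% of all tested genes fell. All 5 estimates were below 0 in both, against 51.5% and 49.1% of all genes. Gbp2, a guanylate-binding protein that coats intracellular microbes (ENSMUSG00000028270, chr3:142326363-142343769), was 8.196, 9.61, 9.56 and 8.39 CPM in the 4 col1 libraries, 3.54, 4.73, 3.74 and 3.47 CPM in the 4 col1-ACLP libraries and 3.67, 5.14, 5.903 and 3.18 CPM in the 4 col1-ACLP+SB libraries. It was the member with the largest fall past the threshold, to 0.434-fold in col1-ACLP (log2 fold change -1.20, SE 0.19, adjusted p = 3.55e-05) and 0.503-fold in col1-ACLP+SB (log2 fold change -0.99, SE 0.19, adjusted p = 0.000602), and no library with ACLP reached the col1 range. Irgm1, which controls the other immunity-related GTPases (ENSMUSG00000046879, chr11:48752795-48762510), was 28.8, 29.7, 30.5 and 34.1 CPM in the 4 col1 libraries, 24.1, 25.3, 23.5 and 25.9 CPM in the 4 col1-ACLP libraries and 27.1, 26.99, 29.5 and 31.8 CPM in the 4 col1-ACLP+SB libraries. It fell in col1-ACLP (log2 fold change -0.32, SE 0.08, adjusted p = 0.00726), while col1-ACLP+SB overlapped col1 (-0.09, adjusted p = 0.605) and lay above col1-ACLP in every library. Igtp, from the same family, was lower in every library of both ACLP groups without passing the test (log2 fold change -0.59, adjusted p = 0.109, in col1-ACLP). Gbp3 and Gbp7, neighbours of Gbp2 on chromosome 3, had intervals of -1.51 to 0.35 and -3.49 to 0.73. Reads of these families can be split between close copies.

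The class I presentation members had estimates below 0 at each step from peptide to cell surface. All 9 estimates were below 0 in both comparisons with col1 (51.5% and 49.1% of all genes), and 5 of 9 fell in col1-ACLP and 3 of 9 in col1-ACLP+SB (8.41% and 4.54% of all genes). Of the immunoproteasome subunits, which replace subunits of the ordinary proteasome and change the peptides it makes, Psmb10 (ENSMUSG00000031897, chr8:106662367-106665076) was 31.2, 31.9, 24.4 and 26.9 CPM in the 4 col1 libraries, 22.5, 21.9, 18.1 and 21.4 CPM in the 4 col1-ACLP libraries and 24.2, 23.2, 21.1 and 25.8 CPM in the 4 col1-ACLP+SB libraries. It fell in col1-ACLP (log2 fold change -0.45, SE 0.10, adjusted p = 0.00187), and in col1-ACLP+SB the groups overlapped (log2 fold change -0.28, SE 0.10, adjusted p = 0.0809; 0.0334 without col1 replicate 3). Psmb8 was 1.12, 0.185, 0.8498 and 0.558 CPM in the 4 col1 libraries, 0.855, 0.276, 0.367 and 0.106 CPM in the 4 col1-ACLP libraries and 0.3702, 0.973, 0.289 and 0 CPM in the 4 col1-ACLP+SB libraries, at 0.147 FPKM the weakest of the 9, and neither it nor Psmb9 (log2 fold change -0.29, adjusted p = 0.542) passed. The subunits that these 3 replace, Psmb5, Psmb6 and Psmb7, were a separate list: none of 3 passed in any comparison, and their estimates in col1-ACLP were above 0, from 0.09 to 0.18. Of all tested genes, 9.52% rose in col1-ACLP and 4.6% rose in col1-ACLP+SB, so a count of 0 of 3 does not set them apart.

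Tap1 and Tap2 form the pump that moves peptides into the endoplasmic reticulum. Tap2 (ENSMUSG00000024339, chr17:34422501-34435295) was 32.99, 41.2, 35.4 and 36.6 CPM in the 4 col1 libraries, 26.1, 26.3, 20.8 and 22.2 CPM in the 4 col1-ACLP libraries and 26.5, 26.4, 26.9 and 28.4 CPM in the 4 col1-ACLP+SB libraries. Every library with ACLP was below every col1 library, with falls to 0.653-fold (log2 fold change -0.61, SE 0.09, adjusted p = 1.13e-05) and 0.7399-fold (log2 fold change -0.43, SE 0.09, adjusted p = 0.0014) in col1-ACLP and col1-ACLP+SB. Tap1 (ENSMUSG00000037321, chr17:34406527-34416199) was 20.5, 19.6, 24.3 and 21.3 CPM in the 4 col1 libraries, 18.1, 17.7, 18.3 and 19.3 CPM in the 4 col1-ACLP libraries and 22.04, 22.3, 20.03 and 19.4 CPM in the 4 col1-ACLP+SB libraries. It was lower in all col1-ACLP libraries than on col1 but missed the threshold (log2 fold change -0.22, adjusted p = 0.112; 0.0434 when scaled by library size alone), and 12.4% of its exon bases overlap Psmb9 on the opposite strand. Tapbp, or tapasin, which loads peptides onto class I (ENSMUSG00000024308, chr17:34134873-34148266), was 178, 169, 174 and 186 CPM in the 4 col1 libraries, 147, 142, 128 and 135 CPM in the 4 col1-ACLP libraries and 154, 163, 154 and 161 CPM in the 4 col1-ACLP+SB libraries. The 3 groups of Tapbp did not overlap, with col1-ACLP+SB between the others, and neither did those of Tap2. Tapbp fell in col1-ACLP (log2 fold change -0.35, SE 0.05, adjusted p = 1.12e-05) and in col1-ACLP+SB (log2 fold change -0.16, SE 0.05, adjusted p = 0.0489). The second of these calls was lost under 11 of 20 alternatives (adjusted p up to 0.173, reached without col1 replicate 4). Of its exon bases, 20.9% lie in exons of Zbtb22 on the same strand. Antisense non-coding genes cover a further 25.6% (Gm19412) and 7.39% (Gm64688), and whether these shares overlap was not tested.

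Of the chains of the class I molecule, B2m and H2-K1 fell in col1-ACLP. B2m, the light chain (ENSMUSG00000060802, chr2:121978167-121983564), was 532, 568, 524 and 547 CPM in the 4 col1 libraries, 485, 509.8, 472 and 434 CPM in the 4 col1-ACLP libraries and 492, 468, 498 and 497 CPM in the 4 col1-ACLP+SB libraries. Each col1 library was above each library with ACLP, and its falls were the smallest among the called members, to 0.875-fold in col1-ACLP (log2 fold change -0.19, SE 0.05, adjusted p = 0.00451) and 0.901-fold in col1-ACLP+SB (log2 fold change -0.15, SE 0.05, adjusted p = 0.0438; lost under 12 of 20 alternatives, adjusted p up to 0.139, reached without col1 replicate 2). The heavy chain H2-K1 (ENSMUSG00000061232, chr17:34214991-34219321) was 9.48, 10.4, 10.8 and 10.2 CPM in the 4 col1 libraries, 7.58, 5.25, 6.05 and 8.93 CPM in the 4 col1-ACLP libraries and 6.86, 9.03, 6.98 and 6.85 CPM in the 4 col1-ACLP+SB libraries. It fell in col1-ACLP (log2 fold change -0.56, SE 0.16, adjusted p = 0.0137; adjusted p up to 0.0668 without col1-ACLP replicate 2 or 3) and missed the threshold in col1-ACLP+SB (log2 fold change -0.46, SE 0.16, adjusted p = 0.07; it passed under 5 of 20 alternatives, lowest adjusted p 0.032), with no overlap with col1 in either. The heavy chain H2-D1 (ENSMUSG00000073411, chr17:35481706-35486475) was 34.95, 27.6, 26.7 and 36.8 CPM in the 4 col1 libraries, 33.7, 22.4, 23.6 and 20.2 CPM in the 4 col1-ACLP libraries and 22.5, 31.1, 22.2 and 31.3 CPM in the 4 col1-ACLP+SB libraries. Its replicates overlapped between groups (log2 fold change -0.34, adjusted p = 0.112, in col1-ACLP; 0.00509 when no genes were filtered, and it also passed without col1-ACLP replicate 1). On col1 the light chain was at 631 FPKM and the heavy chains at 3.48 and 12.2 FPKM. Class I genes differ between mouse strains, and the part that mapping C3H reads to the reference strain has in these levels was not tested.

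**Figure D4:**
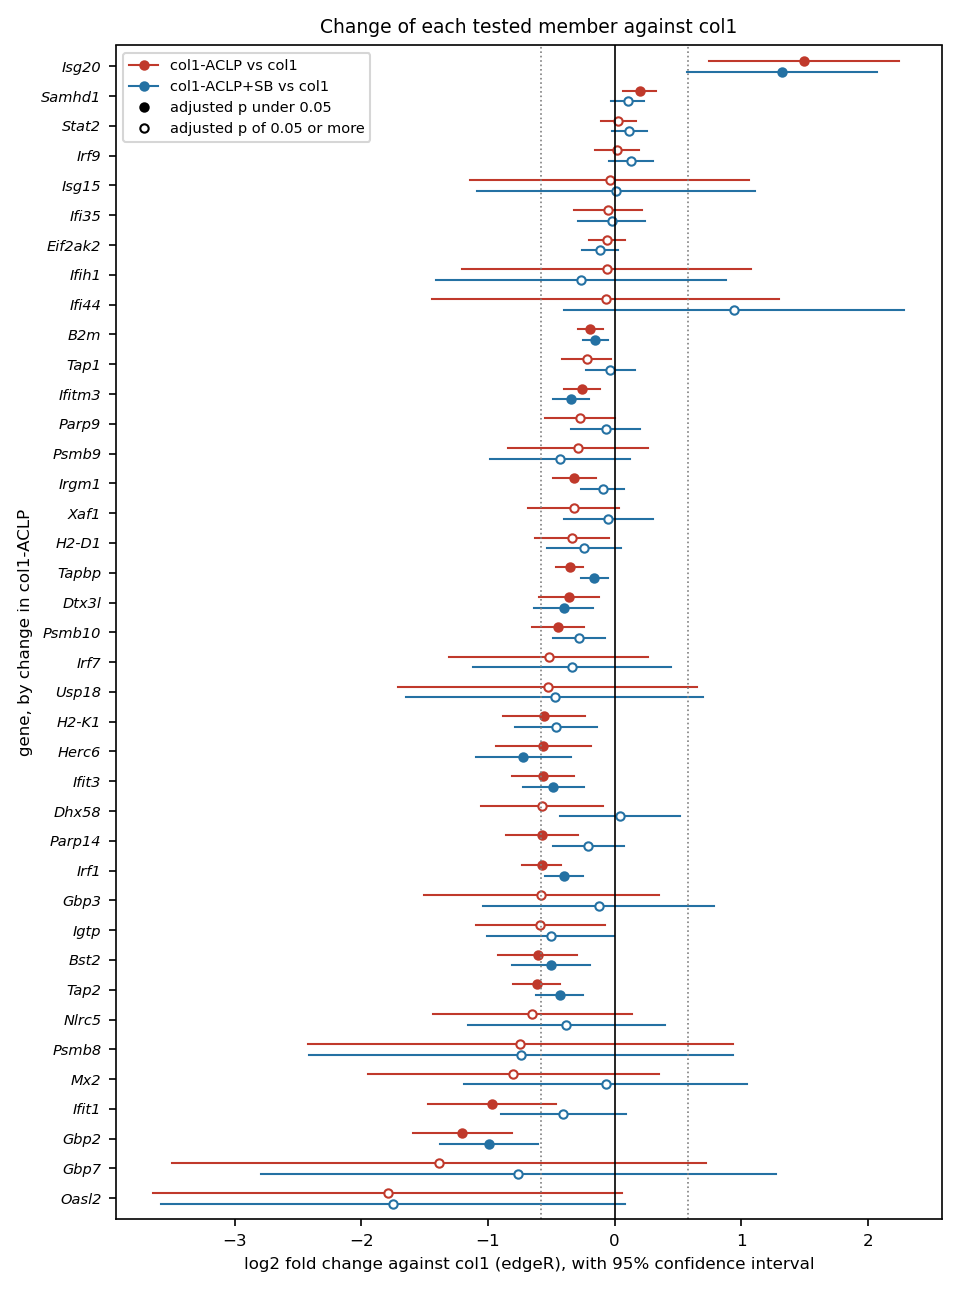
The log2 fold change of the 39 tested members against col1 with its 95% confidence interval, in col1-ACLP (red) and col1-ACLP+SB (blue); filled points passed the test, open points did not, and dotted lines mark 0.58. Most red points lie left of 0, the blue point lies nearer to 0 for Ifit1, Parp14, Irgm1 and Tapbp, and the widest intervals belong to Oasl2, Gbp7 and Psmb8.

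The direct comparison of col1-ACLP+SB with col1-ACLP asks what SB431542 changed on the ACLP coating. No member passed: 0 rose and 0 fell by edgeR's test, where 0.571% of all genes rose and 0.905% fell (0.085% and 0.0425% past the fold threshold). At an unadjusted p under 0.05 there were 6 members, all higher (Irf1, Dhx58, Ifit1, Parp14, Irgm1 and Tapbp), while of all 16465 genes 1020 were higher and 1091 lower at that p. DESeq2 and scaling by library size alone each called 1, Tapbp. The median log2 fold change was 0.10 against 0.00485 over all genes, 8 of 39 estimates (20.5%) were below 0 against 48.8% of all genes, and in 4 members (Irgm1, Tap1, Tap2 and Tapbp) every col1-ACLP+SB library was above every col1-ACLP library, against 3.65% of all genes; in no member was every library below, against 4.52% of all genes. Tapbp came nearest, with a log2 fold change of 0.19 (95% interval 0.09 to 0.30, adjusted p = 0.0585). The interval was 0.02 to 0.33 for Irf1, 0.05 to 0.40 for Irgm1, 0.08 to 0.65 for Parp14 and 0.05 to 1.07 for Ifit1. These intervals are not adjusted for the number of genes tested, and none of the 4 genes passed (adjusted p = 0.299, 0.21, 0.216 and 0.324). For Gbp2 (-0.18 to 0.61), Bst2 (-0.21 to 0.42), B2m (-0.06 to 0.14) and Ifitm3 (-0.23 to 0.06) the intervals hold 0 and reach both sides of it.

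The rest of the pathway was read from 8 further lists. No interferon ligand was tested: 10 of 11 ligand genes, Ifnb1 among them, were at 0 counts in all 12 libraries, which allows levels of up to 0.0579 to 0.106 CPM per library, and Ifne had 4 counts in each of 3 libraries. Among the receptors and kinases, Tyk2, a kinase of the type I receptor, went from 66.4 ± 1.96 to 52.9 ± 3.69 CPM (SD, n = 4; log2 fold change -0.33, SE 0.07, adjusted p = 0.00157), and Ifngr2, a chain of the type II receptor, from 65.4 ± 6.37 to 53.2 ± 2.79 CPM (SD, n = 4; log2 fold change -0.30, SE 0.09, adjusted p = 0.0165).

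Upstream of interferon, 4 of 13 tested sensing genes fell in col1-ACLP and 3 of 13 in col1-ACLP+SB (median -0.03 and -0.09), where 8.41% and 4.54% of all tested genes fell. Ddx58, the gene of the viral RNA sensor RIG-I, went from 58.9 ± 3.68 CPM on col1 to 43.1 ± 1.75 CPM on col1-ACLP and 49.6 ± 3.18 CPM on col1-ACLP+SB (SD, n = 4; Ddx58 log2 fold change -0.45, SE 0.07, adjusted p = 1.84e-05, in col1-ACLP). Ticam1, the adaptor of Tlr3 and Tlr4, and Ikbke, a kinase that activates Irf3 and Irf7, fell as well (log2 fold change -0.38, SE 0.08, adjusted p = 0.00167, and log2 fold change -0.33, SE 0.07, adjusted p = 0.00131). Tlr4, a receptor for bacterial lipopolysaccharide, fell in col1-ACLP (log2 fold change -0.35, SE 0.08, adjusted p = 0.00402) and in col1-ACLP+SB (log2 fold change -0.38, SE 0.08, adjusted p = 0.00337). Among the 9 tested brakes on the pathway none fell in col1-ACLP, and Pias1 fell in col1-ACLP+SB (log2 fold change -0.21, SE 0.06, adjusted p = 0.0208).

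Of 40 further interferon-stimulated genes that were tested, 15 fell and 1 rose in col1-ACLP, and 10 fell in col1-ACLP+SB (median -0.27 and -0.21), where 8.41% and 4.54% of all tested genes fell and 9.52% rose in col1-ACLP. Lgals3bp, a secreted glycoprotein, went from 91.1 ± 7.12 CPM on col1 to 58.3 ± 4.99 CPM with ACLP and 62.7 ± 1.95 CPM with ACLP and SB431542 (SD, n = 4; log2 fold change -0.65, SE 0.07, adjusted p = 6.44e-08, in col1-ACLP). Ifitm2, the neighbour and close copy of Ifitm3, fell too (log2 fold change -0.35, SE 0.05, adjusted p = 1.08e-05). Zc3hav1, an antiviral protein that binds CpG-rich RNA, was the gene that rose (log2 fold change 0.27, SE 0.05, adjusted p = 0.000243). In col1-ACLP+SB, Lgals9 (log2 fold change -0.25, SE 0.06, adjusted p = 0.00359) and Ifi204 (log2 fold change -0.69, SE 0.16, adjusted p = 0.00496) were among those that fell. Cxcl10, a chemokine that interferon strongly induces, had 0 to 11 counts per library and was not tested.

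Among class I genes outside the members, heavy chains and chaperones were read apart. Of 6 tested heavy chain genes 3 fell in col1-ACLP (H2-T23, H2-T22 and H2-Q4), where 8.41% of all tested genes fell. H2-T23, which encodes the non-classical molecule Qa-1, was 44.7, 47.9, 40.9 and 49.999 CPM in the 4 col1 libraries, 19.2, 17.6, 19.3 and 17.1 CPM in the 4 col1-ACLP libraries and 23.8, 26.1, 25.7 and 25.9 CPM in the 4 col1-ACLP+SB libraries. The 3 groups did not overlap, and it fell to 0.399-fold in col1-ACLP (log2 fold change -1.32, SE 0.08, adjusted p = 6.06e-12), fell to 0.553-fold in col1-ACLP+SB (log2 fold change -0.85, SE 0.08, adjusted p = 2.51e-08) and was higher in col1-ACLP+SB than in col1-ACLP (log2 fold change 0.47, SE 0.08, adjusted p = 0.00339). The general chaperones that help fold class I in the endoplasmic reticulum went the other way: Calr (log2 fold change 0.28, SE 0.03, adjusted p = 5.82e-07), Pdia3 (log2 fold change 0.36, SE 0.04, adjusted p = 2.18e-07) and Canx all rose in col1-ACLP, and Canx fell in col1-ACLP+SB against col1-ACLP (log2 fold change -0.20, SE 0.05, adjusted p = 0.0348). Over the 16 tested genes of the list, 3 rose and 3 fell in col1-ACLP, and 3 rose and 2 fell in col1-ACLP+SB. Of all tested genes, 9.52% rose and 8.41% fell in col1-ACLP, and 4.6% rose and 4.54% fell in col1-ACLP+SB. Of 4 tested MHC class II genes none passed in any comparison. Beside the shares above, 0.571% of all tested genes rose and 0.905% fell in col1-ACLP+SB against col1-ACLP. A count of 0 of 4 does not set the class II genes apart from all genes.

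**Figure D5:**
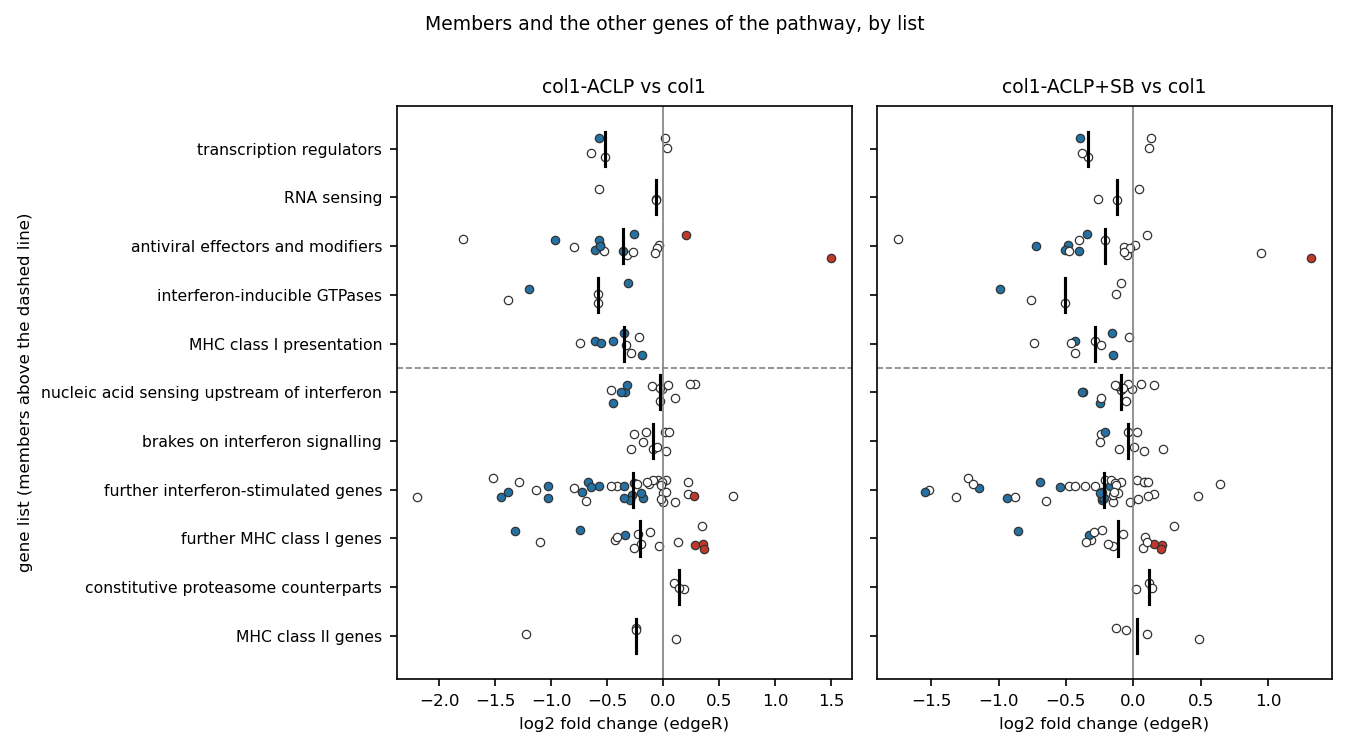
Each point is a tested gene, placed by its log2 fold change in col1-ACLP (left) or col1-ACLP+SB (right) against col1; filled points passed the test (blue lower, red higher), black bars are list medians, the list of receptors and kinases is not drawn, and the members are above the dashed line. The medians of the interferon-stimulated genes and of the class I members lie left of 0, and the medians of sensors and brakes lie close to it.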

How the data were processed

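RNA was measured by poly(A) RNA-seq in 12 libraries of 10T1/2 cells, 4 per group, grouped by their labels. The authors deposited raw counts per gene with the gene's length in bases; per the study's methods, paired-end reads were mapped with HISAT2 to GRCm39. The labels list mm10, but the deposited coordinates of all 43 members overlap the same genes in GRCm39. The counting tool, its strand setting and its handling of reads with several matches are not given in the sources used here; reads of close copies may therefore be split or lost.

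From the counts, 16465 of 56748 genes were kept by filterByExpr (at least 4 libraries over its minimum) and fitted in R 4.3.3 with edgeR 4.0.16, using TMM scaling, the quasi-likelihood test and all 12 libraries in 1 model with group as its term. P-values were adjusted by the Benjamini-Hochberg method over all tested genes of a comparison, with a threshold of 0.05; the log2 fold change threshold of 0.58 is that of the study's methods. Fold changes, their SE and 95% confidence intervals come from this fit, and figures use log2 CPM with a prior count of 2. Replicates differed by more than counting noise (chi-square per degree of freedom 7.22 to 19.5 over 18 pairs), so each library was counted once. The upper limit for a gene without counts is 3 counts per library and covers counting error only.

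The members and lists were chosen with earlier results of these data known. Per-library values are given for members with an adjusted p under 0.05, for the 3 most abundant members and for Stat2, Irf1, Irf7, Irf9, Nlrc5, Isg15, B2m, H2-K1, H2-D1, Tap1 and Psmb8 whatever their values; further lists give at most 3 genes per comparison by smallest adjusted p, and Ifnb1 and Cxcl10. Eif2ak2, Dhx58, Ifih1, Usp18, Parp9, Oasl2, Xaf1, Ifi35, Mx2, Ifi44, Igtp, Gbp3, Gbp7 and Psmb9 are named to account for every member, and H2-T22, H2-Q4, Canx and Psmb5 to Psmb7 as the members of counts given. On simulated counts for col1-ACLP against col1, the fit recovered 62 of 100 genes changed by 0.58 and 71 of 100 changed by 1 on the log2 scale, with 5 false calls among 16021 genes tested. Alternatives were RLE scaling (edgeR), library size alone, 2 other filters, DESeq2 1.42.0, limma-voom (limma 3.58.1), only the 2 groups compared, the replicate number as a block, and each library left out. Promoter windows and starts come from GRCm39 with GENCODE annotation; the genome is of the C57BL/6J strain. A result that the rule for named genes also covers is not reported here.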

Additional observations from a re-analysis of the deposited data

Results flagged for a closer look

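In 5 of 117 groups of 4 libraries (39 tested members in 3 groups), 1 library lay far from the other 3 by Dixon's test; chance alone flags about 1 group in 20, here 5.85. In the col1-ACLP+SB group, replicate 1 had Irf1 at 27.6 CPM against 30.2 to 30.5 CPM in the others. Replicate 2 of that group had Irf9 at 36.4 CPM against 31.8 to 32.0 CPM and H2-K1 at 9.03 CPM against 6.85 to 6.98 CPM, and without it H2-K1 passed the test against col1 (adjusted p = 0.032, edgeR). Replicate 3 of that group had Mx2 at 2.01 CPM against 0.436 to 0.695 CPM. In the col1-ACLP group, replicate 2 had Gbp7 at 0.857 CPM against 0 to 0.0611 CPM. The cause of these gaps was not tested.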

How the results depend on the processing

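Of 28 calls among the 25 members named by rule, 18 held under all 20 alternatives, 10 were lost under at least 1, and none changed sign. Scaling by library size alone, which moved the median of all genes by -0.05, -0.024 and 0.027 in log2 fold change, left 1 member higher in col1-ACLP against col1, put 9 members lower past the fold threshold there, and called 1 member higher in col1-ACLP+SB against col1-ACLP, as DESeq2 did. Fitting only the 2 groups gave 0 members higher in col1-ACLP+SB against col1, with and without the fold threshold. With 1 library left out, 1 to 2 members rose and 12 to 16 fell in col1-ACLP against col1 (1 rose without col1 replicate 1 or 4 or col1-ACLP replicate 2, 3 or 4), 4 to 6 fell past the fold threshold, 6 to 9 fell and 0 to 1 rose in col1-ACLP+SB against col1, also past the fold threshold (0 without col1 replicate 1 or col1-ACLP+SB replicate 4), and 0 passed between the groups with ACLP. The replicate numbers do not pair the libraries (correlation of deviations -0.0372 to 0.036); with the replicate block, 15 members fell in col1-ACLP and 8 fell in col1-ACLP+SB, where Tapbp (adjusted p = 0.0702) and B2m (0.0715) were lost, and no other call of a named member was lost. Estimates near 0 that turned sign were, for library size alone, Stat2 (-0.0207) and Irf9 (-0.0328) in col1-ACLP and Isg15 (-0.0102) in col1-ACLP+SB, and, in col1-ACLP+SB against col1-ACLP, Psmb8 under limma-voom (-0.62) and under the replicate block (-0.01969). With 1 library left out, the log2 fold change in col1-ACLP ran from -0.0357 to 0.0581 for Irf9 and from -0.61 to 0.30 for Isg15. In col1-ACLP+SB against col1 it ran from -0.50 to 0.0145 for Irf7, from -0.24 to 0.36 for Isg15 and from -0.0751 to 0.0319 for Tap1. Between the groups with ACLP it ran from -0.10 to 0.42 for Irf7, from -0.29 to 0.62 for Isg15, from -0.31 to 0.0241 for Isg20, from -0.14 to 0.0252 for Dtx3l, from -0.83 to 0.68 for Psmb8, from -0.0013 to 0.0762 for B2m and from -0.0186 to 0.24 for H2-K1. The cause of these shifts was not tested. Depth limits the 13 tested members under 1 FPKM most.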
